A study of Caenorhabditis elegans with 24 samples.

Results

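A set of 43 transcripts of *Caenorhabditis elegans* was more abundant both in worms under dietary restriction (DR) and in a well-fed *daf-2;rsks-1* double mutant than in well-fed wild-type worms. The members were chosen by their measured total mRNA. They are the rows of the deposited table with a mean of at least 8 CPM (reads scaled to the size of the library) over the 16 wild-type libraries, and with a mean log2(CPM + 0.5) at least 1 unit above well-fed wild type in both other conditions. Of 45461 rows, 8360 passed the CPM minimum and 43 passed both thresholds, which is 0.514% of the rows kept. All 43 matched the annotation. They are 42 protein-coding genes and 1 noncoding RNA, *tts-1*. Because the total mRNA values selected the members, those values are given here as a description, and tests are given for translated mRNA only.

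RNA came from whole worms raised at 20°C on *Escherichia coli* OP50. Wild-type worms (N2) were fed ad libitum (AL) or placed on DR by food dilution, and the double mutant was fed AL. Diets began on day 1 of adulthood and all worms, mutants included, received FUdR, a drug that blocks the production of progeny. Worms were lysed on day 4, which the study describes as after 4 days on the diets. The food density on a log10 scale is 11 CFU in the labels for AL and 9 for DR, whereas the methods of the study give the AL value for both diets. The alleles of *daf-2* and *rsks-1* are not given in the labels. Part of a lysate was kept for total mRNA, and the rest was run on a sucrose gradient to collect RNA bound to 2 or more ribosomes, called translated mRNA here. There were 4 libraries for each of 3 conditions and 2 mRNA pools, 24 in all.

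The 2 conditions act on linked pathways. *daf-2* encodes the insulin/IGF-1 receptor, which keeps the transcription factor DAF-16/FOXO out of the nucleus, and *rsks-1* encodes S6 kinase, an effector of the TOR pathway that promotes protein synthesis. Food shortage lowers both insulin and TOR signalling and shifts worms from storing fat to burning it. Genes that answer to DAF-16 include ferritin, antimicrobial proteins and enzymes of fat and xenobiotic metabolism.

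The libraries had 7960544 to 15658505 reads counted on genes. Spearman's correlation between libraries was at least 0.991 within a group and at most 0.943 between groups. In the double mutant, *rsks-1* had 12.58 to 14.5 CPM in total mRNA against 76.6 to 86.5 CPM under AL, a log2 change of -2.53. *mtl-1*, a metallothionein activated by DAF-16, had 436 to 486 CPM against 22.6 to 26.7 CPM, a log2 change of 4.19. *daf-2* itself was at 51.8 ± 1.26 CPM (SD, n = 4) in the mutant and 53.5 ± 2.91 CPM in AL worms, so that its mRNA level carries no check of the allele. Reads of ribosomal RNA made up 11.5% to 20.9% of the translated libraries of DR worms and 0.517% to 7.77% of the others. The members took 0.0876% to 0.0954% of the reads of AL total mRNA, 0.430% to 0.446% under DR and 0.324% to 0.328% in the double mutant.

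Few rows passed either threshold in total mRNA. DR worms were at least 2-fold above AL in 319 rows (3.82%) and at least 2-fold below in 658 rows (7.87%). The double mutant was at least 2-fold above AL in 276 rows (3.3%) and below in 316 rows (3.78%). The 2 comparisons share the AL libraries, so a high or low AL value moves both in the same direction. The members' median log2 difference was 1.95 under DR, with a range of 1.0 to 5.35, and 1.6 in the double mutant, with a range of 1.0 to 3.98. Over all rows kept the medians were -0.06 and -0.13. The DR difference was the larger one in 22 members and the mutant's in 21.

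**Figure D1:**
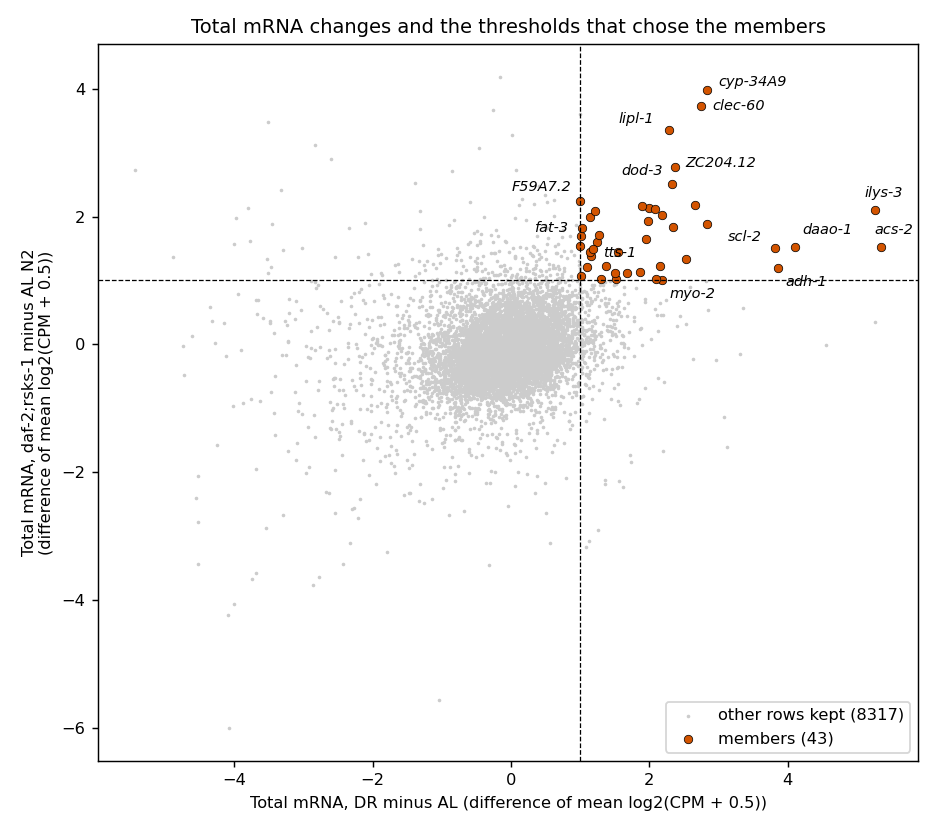
Total mRNA difference from AL worms for every row kept, with DR on the horizontal axis and the double mutant on the vertical axis, both as differences of mean log2(CPM + 0.5) over 4 libraries a group. Dashed lines mark the thresholds of 1 that chose the 43 members (orange). *acs-2* and *ilys-3* lie far to the right, with DR differences of 5.35 and 5.27, while *cyp-34A9*, *clec-60* and *lipl-1* lie highest, with mutant differences of 3.98, 3.73 and 3.35.

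The set has no natural edge. Just inside the DR threshold were *F59A7.2* and *T07D3.4*, with log2 differences of 1.0001 and 1.001. Just outside it were *W06H8.2* and *tbb-6*, both with 0.998. For the mutant threshold, *myo-2* at 1.004 and *Y37H9A.5* at 1.02 were just inside, and *Y53F4B.45* at 0.996 and *lpd-7* at 0.99 just outside. The CPM minimum was taken over AL and DR libraries together, so that members could pass it through DR. In AL worms alone, 22 of the 43 members had a mean under 8 CPM and 21 had a mean of at least 8 CPM.

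Translated mRNA entered the rule only through the CPM minimum, and the translated mRNA of the double mutant did not enter it at all. It is, however, from the same lysates as the total mRNA. A call in limma needed a Benjamini-Hochberg adjusted p under 0.05 over all 8360 rows and a change of at least 2-fold. Under DR, 38 of the 43 members rose in translated mRNA, 0 fell and 5 were not called, where 7.48% of all rows rose and 7.87% fell. In the double mutant, 37 rose, 0 fell and 6 were not called, where 3.78% of all rows rose and 6.66% fell. In both comparisons every library of the DR or mutant worms lay above every AL library for all 43 members. Among all rows this held for 31% under DR and for 27.1% in the double mutant. The members' median log2 change was 2.09 under DR and 1.77 in the double mutant, beside -0.09 and -0.10 over all rows. The 21 members with an AL mean of at least 8 CPM, for which the minimum did not require a high DR value, rose in 18 cases under DR and in 16 in the double mutant. With composition factors set within each pool and ribosomal RNA left out, the counts of rises were 38 and 37 as well.

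**Figure D2:**
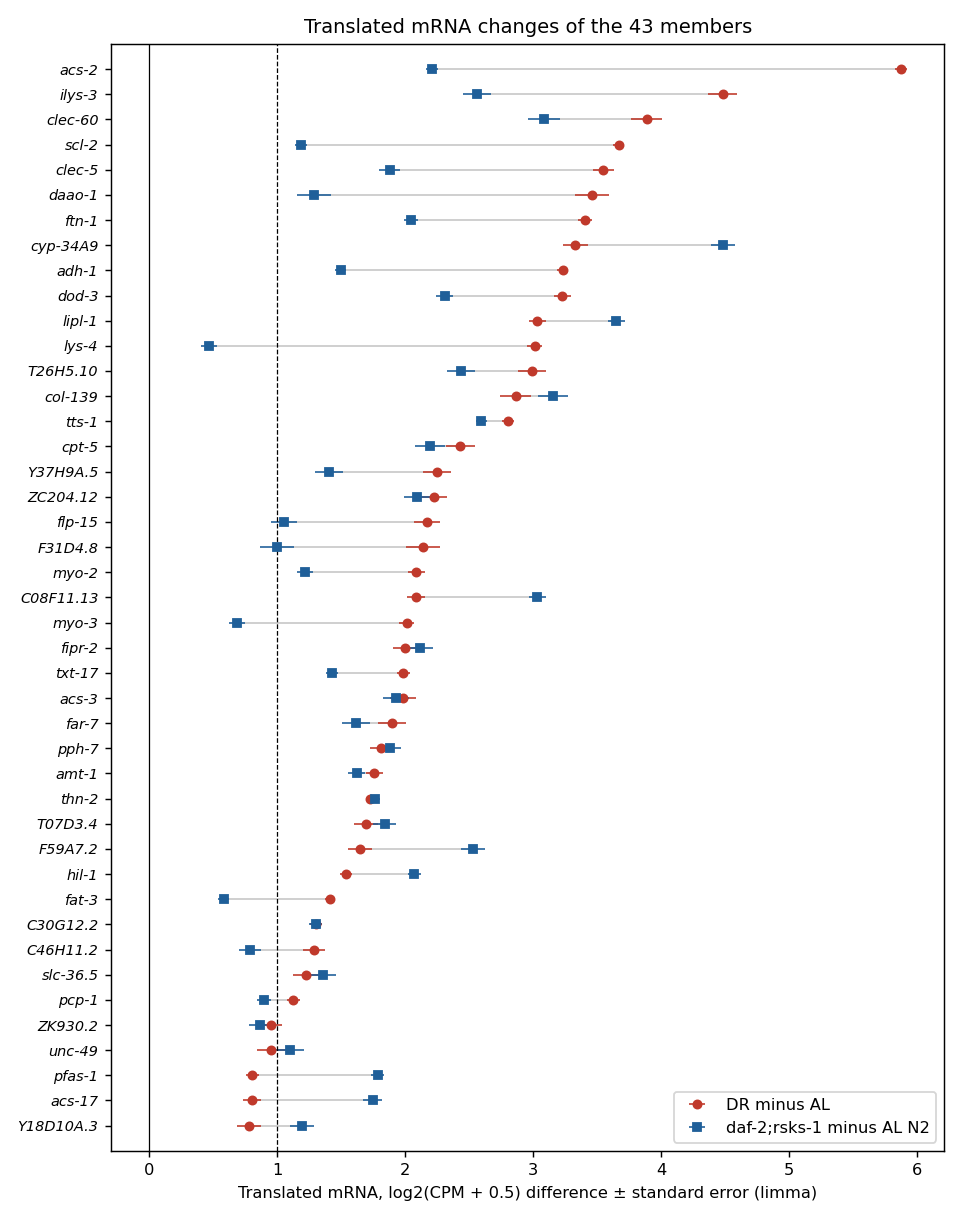
Change of each of the 43 members in translated mRNA, as the log2(CPM + 0.5) difference ± standard error from limma, for DR minus AL (red circles) and double mutant minus AL (blue squares), 4 libraries a group. The dashed line marks 2-fold. All points lie right of 0, the largest gap between the conditions is that of *acs-2* (5.87 against 2.21), and *cyp-34A9* is among the members where the mutant lies further right (4.48 against 3.33).

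Genes of fatty acid metabolism made up one group of members, put together by known role: the enzymes *acs-2*, *acs-3*, *acs-17*, *cpt-5*, *lipl-1* and *fat-3* and the fatty acid binding protein *far-7*. In translated mRNA 6 of these 7 rose under DR and 6 rose in the double mutant, where 7.48% and 3.78% of all rows rose. *acs-3*, *cpt-5*, *lipl-1* and *far-7* had AL means under 8 CPM, so that they passed the minimum only through high DR values. *acs-2* encodes a mitochondrial acyl-CoA synthetase that prepares fatty acids for oxidation and is known as a fasting gene. Its total mRNA was 12.7, 13.3, 14.6 and 14.9 CPM in the AL libraries, 572, 583, 589 and 598 CPM under DR and 39.8, 40.4, 41 and 42.2 CPM in the double mutant. The 3 groups were far apart, with a ratio of means to AL of 42.3 under DR and 2.95 in the mutant. Translated *acs-2* mRNA was 12.7 to 14 CPM under AL, 783, 836, 845 and 847 CPM under DR and 61.4, 63.6, 65.5 and 69.7 CPM in the mutant. It rose by a log2 value of 5.87 ± 0.05 (SE) under DR, adjusted p = 1.22e-44 in limma, the largest change of any member, and by 2.21 ± 0.05 in the mutant, adjusted p = 2.54e-31.

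*lipl-1*, a lysosomal lipase that releases fatty acids from stored fat, had the reverse order. Its total mRNA was 3.38 to 4.23 CPM under AL, 20.6 to 21.2 CPM under DR and 42.1 to 46.7 CPM in the double mutant. Translated *lipl-1* was 5.99, 6.43, 6.83 and 7.16 CPM under AL, 55.7, 55.9, 56.7 and 62.1 CPM under DR and 87.3, 87.5, 89.3 and 90.3 CPM in the mutant. The groups did not overlap, and the log2 changes were 3.03 ± 0.07 under DR and 3.65 ± 0.07 in the mutant. *cpt-5*, of the carnitine palmitoyltransferase family that carries fatty acids into mitochondria, had overlapping levels in the 2 conditions, with 2.44 to 3.09 CPM in AL total mRNA, 12.63 to 15.6 CPM under DR and 10.9 to 14.4 CPM in the mutant. Translated *cpt-5* rose by 2.43 ± 0.12 and 2.19 ± 0.12. *acs-3*, another acyl-CoA synthetase, also had overlapping DR and mutant libraries, and rose in translated mRNA by 1.98 ± 0.10 and 1.93 ± 0.10.

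The other members of the group were unlike each other in the translated pool. *fat-3*, a desaturase needed for long polyunsaturated fatty acids, had 84.3 to 95.3 CPM in AL total mRNA, 182 to 188 CPM under DR and 288, 288, 301 and 309 CPM in the double mutant. In translated mRNA the order turned round, with 73.4 to 83.2 CPM under AL, 201, 210, 219 and 220 CPM under DR and 115, 118, 121 and 123 CPM in the mutant. Translated *fat-3* rose under DR by 1.41 ± 0.04, and its change of 0.58 ± 0.04 in the mutant stayed under 2-fold (adjusted p = 2.04e-15, limma). *acs-17*, an acyl-CoA synthetase, went the other way. Its translated mRNA was 15.9 to 20.0 CPM under AL and 29.4 to 34.7 CPM under DR, a change of 0.81 ± 0.07 that was under 2-fold, and 53.7 to 66.8 CPM in the mutant, a rise of 1.75 ± 0.07. *far-7*, of a family that binds fatty acids and retinol, rose by 1.90 ± 0.11 and 1.62 ± 0.11.

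These members are a small part of fat metabolism. Of 61 rows kept from a list of genes for fat mobilization and fatty acid oxidation, 11 rose and 6 fell in translated mRNA under DR, with a median of 0.21. In the double mutant 5 rose and 6 fell, with a median of -0.01. The list holds 5 of the members, and these make up 4 of the 11 that rose under DR and all of the 5 in the mutant.

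**Figure D3:**
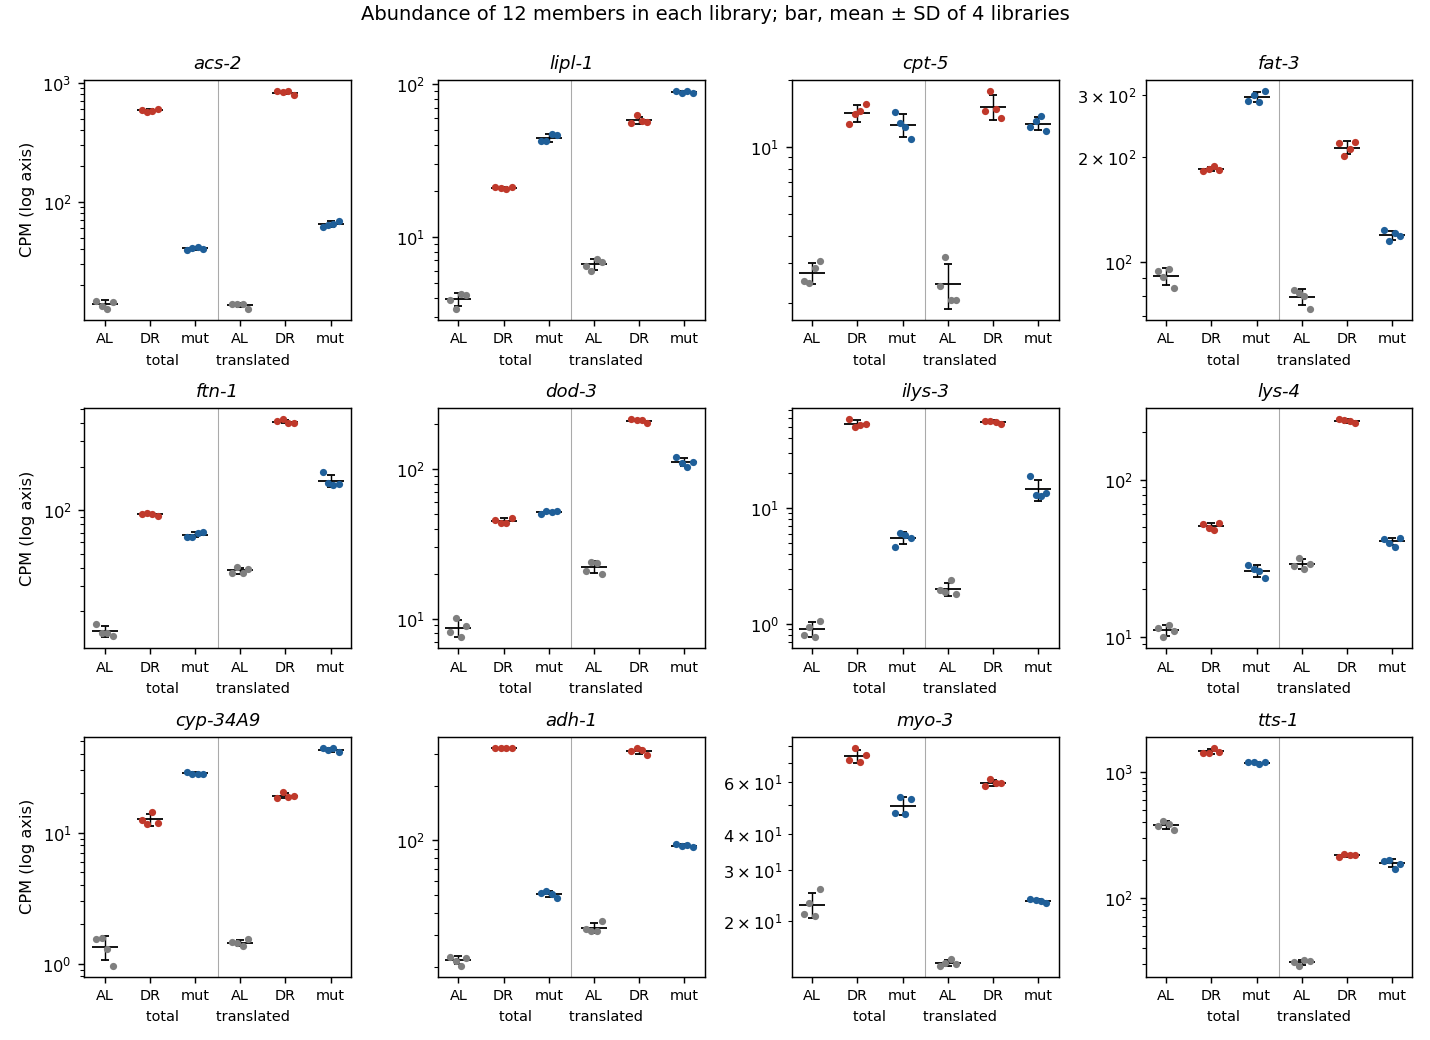
CPM of 12 members in each library on log axes, with total mRNA left and translated mRNA right of the grey line in every panel (AL grey, DR red, double mutant blue, bar mean ± SD, n = 4). *acs-2*, *ilys-3*, *lys-4* and *adh-1* are highest under DR in both pools, *cyp-34A9* and *lipl-1* are highest in the mutant in both pools, and *fat-3* is highest in the mutant in total mRNA but under DR in translated mRNA.

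A second group of 10 members holds outputs of insulin signalling and genes of defence: *ftn-1*, *dod-3*, *thn-2*, *hil-1*, *ilys-3*, *lys-4*, *clec-5*, *clec-60*, *fipr-2* and *scl-2*. All 10 rose in translated mRNA under DR and 9 rose in the double mutant, where 7.48% and 3.78% of all rows rose. *ilys-3*, *clec-5*, *clec-60* and *fipr-2* had AL means under 8 CPM and passed the minimum only through high DR values. Their rises under DR were thus partly set by the rule. *ftn-1* encodes ferritin, which stores iron. Total *ftn-1* mRNA was 13.4, 14.2, 14.2 and 16.42 CPM under AL, 91.4, 94.5, 95 and 95.2 CPM under DR and 65.6, 65.7, 69.7 and 70.6 CPM in the double mutant. In the translated pool it had 36.7 to 40.3 CPM under AL, 401, 403, 413 and 428 CPM under DR and 150, 152, 155 and 183 CPM in the mutant. The 3 groups were separate in both pools, and translated *ftn-1* rose by 3.41 ± 0.05 under DR and by 2.05 ± 0.05 in the mutant (adjusted p = 2.03e-35 and 2.44e-28, limma).

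*dod-3*, named as a gene downstream of DAF-16, was close between the conditions in total mRNA and further apart in translated mRNA. Its total mRNA was 7.51 to 10.1 CPM under AL, 43.7 to 47.1 CPM under DR and 50.3 to 52.7 CPM in the double mutant. Translated *dod-3* was 19.8 to 24.1 CPM under AL, 204.4, 212, 212 and 215 CPM under DR and 103, 110, 111.6 and 121 CPM in the mutant, so that the order of DR and mutant was reversed. It rose by 3.23 ± 0.06 and 2.31 ± 0.06. *hil-1*, a linker histone variant, and *thn-2*, of the thaumatin family, were higher in the mutant in total mRNA. *hil-1* had 15.4 to 18.8 CPM under AL, 63.5 to 65.9 CPM under DR and 76.2 to 81.1 CPM in the mutant. Its translated mRNA rose by 1.54 ± 0.05 and 2.07 ± 0.05. *thn-2* had 39.5 to 40.9, 92.2 to 96.3 and 167 to 181 CPM in the same order, yet rose by similar amounts in translated mRNA, 1.73 ± 0.04 and 1.77 ± 0.04.

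Of 30 rows kept from a list of DAF-16 targets, *dod-3*, *ftn-1*, *hil-1* and *thn-2* are members. In translated mRNA 13 rose and 5 fell under DR, with a median of 0.76, and 13 rose and 3 fell in the double mutant, with a median of 0.85. The list mixes directions, since the study cites *dod-19*, which is on it, as lower in *daf-2* mutants. The falls and medians are therefore not a measure of DAF-16 activity. *mtl-1*, used above to check the mutant's label, is no member, since its total mRNA under DR was 22.02 ± 1.49 CPM beside 24.5 ± 1.68 CPM under AL. Ferritin and lysozymes are known from the intestine, whose markers moved as well. The summed level of 15 intestinal markers was 36915 to 39533 CPM in AL total mRNA, 24330 to 25281 CPM under DR and 32379 to 35540 CPM in the mutant. It was 41673 to 47214 CPM in AL translated mRNA, 39541 to 41466 CPM under DR and 20802 to 21154 CPM in the mutant. Of the 13 kept, 0 rose and 5 fell in total mRNA under DR, and 1 rose and 3 fell in the mutant. In translated mRNA 0 rose and 3 fell under DR, and 0 rose and 8 fell in the mutant. The markers include the vitellogenin genes *vit-1* to *vit-6*, whose weight in the sums was not separated. The part of this shift in the members' values was not tested.

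Lysozymes break down bacterial cell walls. *ilys-3*, an invertebrate-type lysozyme, was nearly absent from AL total mRNA at 0.777, 0.809, 0.944 and 1.06 CPM, which rest on 9 to 12 reads a library. Under DR it had 50.0, 52.2, 52.7 and 58.6 CPM and in the double mutant 4.60, 5.47, 5.88 and 6.11 CPM. The DR libraries thus lay far above the mutant libraries, which in turn all lay above AL. Translated *ilys-3* was 1.80 to 2.39 CPM under AL, 53.0 to 56.5 CPM under DR and 12.61, 12.8, 13.5 and 19.01 CPM in the mutant, with rises of 4.48 ± 0.11 and 2.56 ± 0.11. *lys-4* had the smallest change of any member in the mutant's translated mRNA. Its total mRNA was 9.91 to 11.8 CPM under AL, 47.7 to 53.3 CPM under DR and 23.5 to 28.8 CPM in the mutant. Translated *lys-4* was 27, 28, 29.1 and 31.8 CPM under AL, 230, 234.8, 241 and 243 CPM under DR and 37.5, 39.7, 42.1 and 42.3 CPM in the mutant. The rise under DR was 3.01 ± 0.06, whereas the mutant's change of 0.47 ± 0.06 was under 2-fold. Of 9 lysozyme rows kept, 2 rose and 2 fell in translated mRNA under DR, and 1 rose and 2 fell in the mutant. The 2 that rose under DR are these members. In total mRNA under DR, 2 of the 9 were at least 2-fold higher and 5 lower.

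C-type lectins bind sugars on microbes. *clec-60* had 0.944 to 1.54 CPM in AL total mRNA, 9.66 to 12.56 CPM under DR and 21.8 to 23.3 CPM in the double mutant. In translated mRNA it had 0.773 to 1.76 CPM under AL, 23.2 to 26.1 CPM under DR and 13.2 to 14.9 CPM in the mutant, so that DR was the lower of the pair in total mRNA and the higher in translated mRNA. It rose by 3.89 ± 0.12 and 3.09 ± 0.12. *clec-5* was above the mutant under DR in both pools, and its translated mRNA rose by 3.55 ± 0.08 and 1.88 ± 0.08. Of 42 lectin rows kept, 9 rose and 15 fell in translated mRNA under DR, and 4 rose and 17 fell in the mutant. *fipr-2*, named for its relation to genes induced by fungal infection, rose by 2.00 ± 0.10 and 2.12 ± 0.10. *scl-2*, a secreted protein of the SCP family, had 15.2 to 17 CPM in AL total mRNA, 229 to 244 CPM under DR and 45 to 48.5 CPM in the mutant. Translated *scl-2* rose by 3.67 ± 0.05 under DR and by 1.19 ± 0.05 in the mutant.

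Another 3 members, *cyp-34A9*, *adh-1* and *daao-1*, are oxidoreductases outside the lipid group, and all 3 rose in translated mRNA in both conditions. Of all rows, 7.48% rose under DR and 3.78% in the double mutant. *cyp-34A9* and *daao-1* had AL means under 8 CPM and passed the minimum only through high DR values. *cyp-34A9*, a cytochrome P450, was the member with the largest difference in the double mutant in both pools. Total *cyp-34A9* was 0.966, 1.29, 1.54 and 1.57 CPM under AL, 11.6, 11.9, 12.4 and 14.5 CPM under DR and 27.9, 28.1, 28.3 and 29.1 CPM in the mutant. Translated *cyp-34A9* was 1.36 to 1.55 CPM under AL, 18.5, 18.6, 19.1 and 20.3 CPM under DR and 41.2, 42.6, 44.3 and 44.4 CPM in the mutant. It rose by 3.33 ± 0.10 under DR and by 4.48 ± 0.10 in the mutant. The AL values rest on 10 to 20 reads a library. The mean of *cyp-34A9* over the 16 N2 libraries was 8.63 CPM, and without any 1 of the 4 translated DR libraries it was 7.86 to 7.98 CPM, under the minimum, so that its place among the members rests on every one of them. Of 20 cytochrome P450 rows kept, 5 rose and 4 fell in translated mRNA under DR, and 4 rose and 2 fell in the mutant.

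*adh-1*, an alcohol dehydrogenase, and *daao-1*, a D-amino acid oxidase, had the opposite order. *adh-1* total mRNA was 20.4, 21.7, 22.5 and 22.8 CPM under AL, 323, 323, 324 and 325 CPM under DR and 48.0, 50.7, 51.2 and 52.7 CPM in the double mutant. Translated *adh-1* was 31.5 to 35.8 CPM under AL, 295 to 325 CPM under DR and 91.6 to 95.3 CPM in the mutant, with rises of 3.23 ± 0.04 and 1.5 ± 0.04. *daao-1* had 1.46 to 2.32 CPM in AL total mRNA, 35.4 to 40.3 CPM under DR and 5.72 to 6.21 CPM in the mutant. Its translated mRNA rose by 3.46 ± 0.13 and 1.29 ± 0.13. It was the only member on a list of 39 kept rows for amino acid breakdown, of which 4 rose and 0 fell in translated mRNA under DR, and 1 rose and 4 fell in the mutant.

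A group of 4 members belongs to muscle and nerve, of which 3 rose in translated mRNA in each condition. Of all rows, 7.48% rose under DR and 3.78% in the double mutant. *unc-49* and *flp-15*, described below, had AL means under 8 CPM and passed the minimum only through high DR values. *myo-2* and *myo-3* encode the myosin heavy chains of pharynx and body wall muscle. *myo-3* total mRNA was 20.8, 21.3, 23.2 and 25.9 CPM under AL, 70.3, 71.4, 74.4 and 79.0 CPM under DR and 46.6, 47.0, 52.5 and 53.4 CPM in the double mutant. Translated *myo-3* was 14.1 to 14.9 CPM under AL, 58.2 to 61.6 CPM under DR and 23.2, 23.5, 23.6 and 23.9 CPM in the mutant. It rose by 2.01 ± 0.06 under DR, and its mutant change of 0.69 ± 0.06 was under 2-fold although the libraries did not overlap. *myo-2* had 16 to 20.5 CPM in AL total mRNA, 83.0 to 86.3 CPM under DR and 34.4 to 40.1 CPM in the mutant, and rose in translated mRNA by 2.09 ± 0.06 and 1.22 ± 0.06.

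Markers of these tissues moved as well. In whole worms, fewer cells of a type and less RNA per cell cannot be told apart. The summed level of 11 markers of body wall muscle, *myo-3* included, was 1325 to 1386 CPM in AL total mRNA, 2983 to 3051 CPM under DR and 1960 to 2097 CPM in the double mutant. In translated mRNA it was 1245 to 1357, 4874 to 5111 and 1755 to 1839 CPM. Of these markers, 10 were kept and all 10 rose in translated mRNA under DR, while 1 rose in the mutant. *hlh-1*, a defining transcription factor of this muscle, is listed at 0 in all 24 libraries. For 12 pharyngeal markers, *myo-2* included, the translated sums were 109 to 117 CPM under AL, 234 to 253 CPM under DR and 103 to 108 CPM in the mutant. Of 52 kept rows for the sarcomere, 32 rose and 0 fell in translated mRNA under DR, and 4 rose and 0 fell in the mutant. Markers of the germ line and of oocytes were lower than AL in total mRNA. The summed germline markers were 6834 to 7004 CPM under AL, 5044 to 5116 CPM under DR and 5302 to 5586 CPM in the mutant, and those of oocyte and eggshell 20342 to 21219, 14105 to 14789 and 13493 to 14417 CPM. In translated mRNA the germline sums were 5547 to 6019 CPM under AL, 3612 to 3807 CPM under DR and 5418 to 6025 CPM in the mutant. Of 21 germline markers kept, 0 rose and 2 fell under DR, and 2 rose and 0 fell in the mutant. The translated oocyte and eggshell sums were 18486 to 19627, 14240 to 15229 and 13236 to 13784 CPM, and of 16 kept 0 rose and 11 fell under DR, and 0 rose and 1 fell in the mutant. The part of these shifts in the members' values was not tested.

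*unc-49* encodes a GABA receptor of the neuromuscular junction and *flp-15* a neuropeptide precursor. *unc-49* lay close to the thresholds in every comparison, with total mRNA of 9.05 to 10.4 CPM under AL, 17.8 to 23.9 CPM under DR and 19.8 to 21.7 CPM in the double mutant. Its translated mRNA was 4.44, 5.79, 5.81 and 5.92 CPM under AL, 8.89, 11.5, 12 and 12.19 CPM under DR and 9.54, 12.8, 13.6 and 13.7 CPM in the mutant. The change of 0.95 ± 0.11 under DR was under 2-fold, was 1.05 without the lowest DR library (replicate 4) and passed the threshold under 4 other settings, and the mutant's was a rise of 1.1 ± 0.11. *flp-15* had 8.74 to 9.45 CPM in DR total mRNA and 15 to 16.7 CPM in the mutant, against 3.46 to 4.53 CPM under AL. In translated mRNA DR was above the mutant, at 19.3 to 22.7 CPM against 8.50 to 10.2 CPM, with AL at 3.41 to 4.88 CPM. *flp-15* rose by 2.17 ± 0.10 and 1.05 ± 0.10, and the latter was 0.96 without AL translated replicate 3. Among 51 neuropeptide rows kept, 33 rose and 6 fell in translated mRNA under DR, and 8 rose and 3 fell in the mutant. The summed level of 17 neuronal markers was 626 to 636 CPM in AL translated mRNA, 1037 to 1094 CPM under DR and 682 to 731 CPM in the mutant, and its part in these values was not tested.

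The noncoding RNA *tts-1* has been found with ribosomes in long-lived worms. It was the most abundant member per exon length, at 2056 CPM per kilobase in DR total mRNA, followed by *scl-2* at 336 and *acs-2* at 281. Total *tts-1* was 344, 371, 388 and 407 CPM under AL, 1411, 1424, 1450 and 1563 CPM under DR and 1162, 1191, 1193 and 1203 CPM in the double mutant. In the polysome libraries it was far lower, at 28.8, 30.9, 31.2 and 31.8 CPM under AL, 211, 218, 219 and 221 CPM under DR and 170, 187, 197 and 199 CPM in the mutant. The AL libraries lay below the others by a wide gap in both pools. *tts-1* rose on polysomes by 2.80 ± 0.04 under DR and by 2.60 ± 0.04 in the mutant (adjusted p = 1.86e-35 and 2.69e-34, limma), beside total differences of 1.95 and 1.65. Being noncoding, it is called translated here only by the fraction it was sequenced from.

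Of the other 6 named genes, 5 rose in translated mRNA in each condition, where 7.48% of all rows rose under DR and 3.78% in the double mutant. *col-139* and *slc-36.5* had AL means under 8 CPM and passed the minimum only through high DR values. *col-139*, a collagen, had 3.11 to 4.35 CPM in AL total mRNA and overlapping values of 16.06 to 20.7 CPM under DR and 15.6 to 19.9 CPM in the double mutant. Translated *col-139* rose by 2.86 ± 0.12 and 3.16 ± 0.12. *amt-1*, of the ammonium transporter family, rose by 1.76 ± 0.07 and 1.62 ± 0.07, and *slc-36.5*, of a family of amino acid transporters, by 1.22 ± 0.10 and 1.36 ± 0.10. *pph-7*, named as a protein phosphatase, rose by 1.82 ± 0.09 and 1.88 ± 0.09. *pfas-1*, an enzyme of purine synthesis, had 97.7 to 107 CPM in total mRNA of the mutant, 55.8 to 58.8 CPM under DR and 23.5 to 27.3 CPM under AL. Its translated mRNA rose in the mutant by 1.79 ± 0.05, and the DR change of 0.81 ± 0.05 was under 2-fold. *pcp-1*, of the prolyl carboxypeptidase family, did the reverse, with a rise of 1.13 ± 0.05 under DR and a change of 0.90 ± 0.05 in the mutant.

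The last 12 members are protein-coding genes for which no role is given here: *C08F11.13*, *C30G12.2*, *C46H11.2*, *F31D4.8*, *F59A7.2*, *T07D3.4*, *T26H5.10*, *txt-17*, *Y18D10A.3*, *Y37H9A.5*, *ZC204.12* and *ZK930.2*. In translated mRNA 10 of them rose under DR and 10 in the double mutant, where 7.48% and 3.78% of all rows rose. Apart from *C08F11.13*, *C30G12.2*, *txt-17* and *ZK930.2*, they had AL means under 8 CPM and passed the minimum only through high DR values. *C08F11.13* had 13.5 to 14.3 CPM in AL total mRNA, 54.5 to 57.9 CPM under DR and 59 to 64.6 CPM in the mutant. Its translated mRNA was 6.32 to 8.41, 28.4 to 35.1 and 58.7 to 66.1 CPM, so that the mutant stood further above DR there, with rises of 2.09 ± 0.07 and 3.03 ± 0.07. *ZC204.12* had 1.93 to 3.23 CPM in AL total mRNA, 14.1 to 15.9 CPM under DR and 19.1 to 21.2 CPM in the mutant, and rose by 2.22 ± 0.10 and 2.09 ± 0.10. *F59A7.2* rose by 1.65 ± 0.09 and 2.53 ± 0.09, and *T07D3.4* by 1.70 ± 0.09 and 1.84 ± 0.09. *T26H5.10* and *txt-17* rose more under DR, by 2.99 ± 0.11 against 2.44 ± 0.11 and by 1.99 ± 0.05 against 1.43 ± 0.05.

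Other genes of this group were near the 2-fold threshold. *Y18D10A.3* changed by 0.78 ± 0.09 under DR, the smallest change of any member there, and rose by 1.2 ± 0.09 in the mutant. *C46H11.2* rose by 1.29 ± 0.09 under DR and changed by 0.79 ± 0.09 in the mutant. *ZK930.2* was under 2-fold in both, at 0.96 ± 0.08 and 0.87 ± 0.08, and past it in each under 2 other scalings or tools. *F31D4.8* rose by 2.14 ± 0.13 and 1.001 ± 0.13. Its mutant change was 0.89 without AL translated replicate 1, 0.99 without mutant translated replicate 2 and 0.998 without mutant translated replicate 3. *C30G12.2* rose by 1.3 ± 0.05 in each condition although its total mRNA was 103 to 113 CPM under DR and 73.8 to 78.1 CPM in the mutant. *Y37H9A.5* rose by 2.25 ± 0.11 and 1.41 ± 0.11, but 99.2% of its exon bases also belong to *ndx-4* on the same strand, so that reads of these genes could not be separated. Another 11 members share 1.34% to 8.97% of their exon bases with a neighbour, and the libraries carry no strand.

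The double mutant and DR were then compared directly in translated mRNA. Here 11 members were lower in the mutant, 1 was higher and 31 were not called, where 9.16% of all rows were lower and 7.22% higher. The members' median was -0.23 and that of all rows -0.01. The lower members were *acs-2* (log2 difference -3.66 ± 0.05), *lys-4* (-2.54 ± 0.06), *scl-2* (-2.48 ± 0.05), *daao-1* (-2.17 ± 0.13), *ilys-3* (-1.92 ± 0.11), *adh-1* (-1.73 ± 0.04), *clec-5* (-1.67 ± 0.08), *ftn-1* (-1.36 ± 0.05), *myo-3* (-1.33 ± 0.06), *F31D4.8* (-1.14 ± 0.13) and *flp-15* (-1.11 ± 0.10). By role, 5 of the 11 are among the 10 members of insulin outputs and defence. *adh-1* and *daao-1* are 2 of the 3 oxidoreductases, and 2 of the 11 are among the 4 of muscle and nerve. Whole families moved likewise in this comparison. Of 52 sarcomere rows kept 25 were lower and 0 higher, and of 51 neuropeptide rows 21 were lower and 6 higher. Of 42 lectin rows 15 were lower and 6 higher, and of 9 lysozyme rows 4 were lower and 2 higher. The 1 higher member was *cyp-34A9* at 1.15 ± 0.10. The CPM minimum drew on DR libraries, translated ones included, but on no mutant library. Of the lower members, *ilys-3*, *daao-1*, *clec-5*, *F31D4.8* and *flp-15* passed it only through high DR values, as did *cyp-34A9*. The lean toward lower members was thus partly set by the rule. Where AL total and AL translated means both had to reach 8 CPM, 6 of 19 members were lower and 0 higher. Without any 1 translated DR library, where *cyp-34A9* was under the minimum, 0 members were higher, or *pfas-1* alone at 1.01 without replicate 3. Without mutant translated replicate 1, *acs-17* was higher beside *cyp-34A9*, at 1.01. Under plain CPM, without the composition factors the authors applied, 7 members were lower and 6 higher, while the median of all rows moved to 0.40. Among the members not called, *C30G12.2* differed by 0.00 ± 0.05, *thn-2* by 0.04 ± 0.04 and *acs-3* by -0.05 ± 0.10.

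The ratio of translated to total mRNA compares a member's level in the 2 pools. The study states that global translation is lower under DR, which a relative ratio such as this does not show. The ratio also gives neither the number of ribosomes on an mRNA nor the share of it that was bound. It is given as a difference of mean log2(CPM + 0.5) and as a description, since total mRNA chose the members. The median of the members was 0.36 under AL, 0.32 under DR and 0.60 in the double mutant, beside 0.02, -0.05 and -0.02 over all rows. *tts-1* was lowest in all 3, at -3.60, -2.75 and -2.66. *Y37H9A.5*, *pph-7* and *ZK930.2* were also under -1 in all 3. *ftn-1*, *dod-3* and *scl-2* were above 1 in all 3, with *ftn-1* at 1.37, 2.12 and 1.23. Under DR 14 members had a ratio of at least 1, among them *lys-4* at 2.22, while 16.7% of all rows did. In the mutant 8 members did, where the share of all rows was 4.26%.

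Under DR the change of this ratio from AL lay between -1 and 1 for 39 of 43 members, with *T26H5.10* at 1.74, *flp-15* at 1.14, *clec-60* at 1.13 and *C30G12.2* at -1.04 beyond. Over all rows 3.90% changed by at least 1 and 1.83% by -1 or less. In the double mutant the change lay between -1 and 1 for 40 members, with *fipr-2* at 1.09, *col-139* at 1.03 and *fat-3* at -1.12 beyond, where the shares of all rows were 0.634% and 1.23%. The medians were 0.24 and 0.04, and 0.02 and -0.01 over all rows. In *fat-3*, total mRNA of the mutant was 3.26 times the AL mean and translated mRNA 1.5 times.

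**Figure D4:**
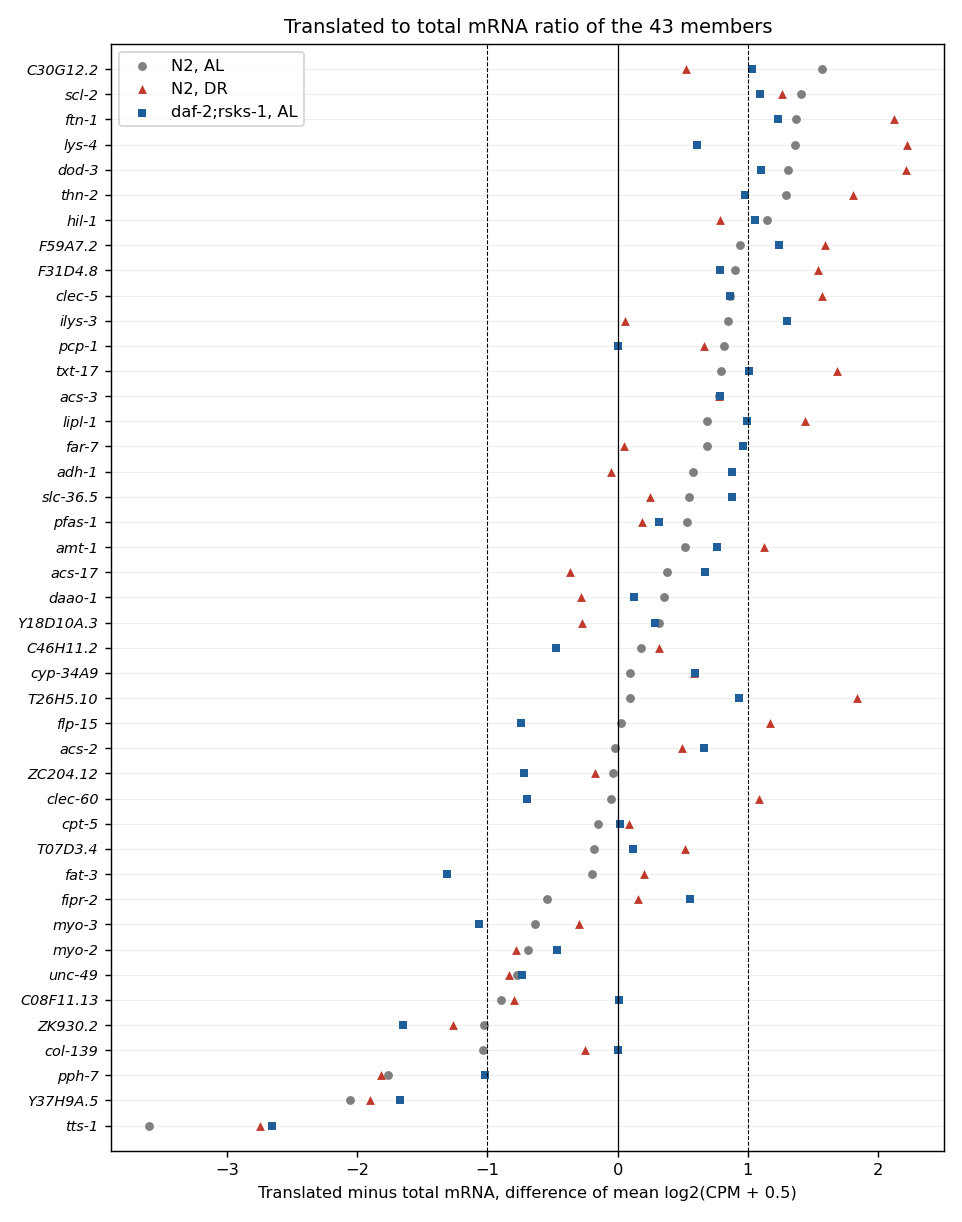
Translated minus total mRNA of the 43 members as the difference of mean log2(CPM + 0.5) over 4 libraries a pool, for AL (grey circles), DR (red triangles) and the double mutant (blue squares). Members are ordered by the AL value. *tts-1* lies lowest in each condition, and *lys-4*, *dod-3* and *ftn-1* lie highest under DR at 2.22, 2.21 and 2.12.

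The members lie on all 6 chromosomes. Chromosome V holds 16 of the 43 (37.2%) and 16.9% of the rows kept, and chromosomes I and X hold 4 each. The closest pair, *acs-3* and *F59A7.2*, has 13 genes between its partners, so that no members are direct neighbours. No member came from the rows kept for the small heat shock proteins (5), the lysosome and autophagy (47), the glyoxylate cycle, gluconeogenesis and trehalose (23), UDP-glucuronosyltransferases (29), glutathione transferases (19) or nuclear hormone receptors (62). Members were 0.514% of all rows kept, a share at which lists of these sizes would hold few or none. In translated mRNA the lysosomal list had 5 rises and 5 falls under DR, and 2 rises and 6 falls in the double mutant. Glutathione transferases had 4 rises and 1 fall under DR, and 2 rises and 5 falls in the mutant.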

How the data were processed

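The authors aligned paired-end reads of 24 unstranded polyA libraries to WS220 with TopHat, counted them per gene with HTSeq (version 0.6.1) and normalized them with edgeR (version 3.0, per the labels). The deposited signal is CPM, the reads of a gene divided by the library size and by a composition factor. These factors equal TMM over all 24 libraries, and 100% of values came out as whole reads within 0.05, from which depths were taken. Composition factors ranged from 0.808 to 1.16, so that a library with much ribosomal RNA depends on them.

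Here log2(CPM + 0.5) was fitted with limma (version 3.58.1, trended variance, R 4.3.3) to 6 groups of 4 libraries over the 8360 rows with a mean of at least 8 CPM in the 16 N2 libraries. The test was planned for plain CPM and kept for this scale, on which the change of a low gene is understated. In simulated reads with 200 rows changed by a log2 value of 2, 100% were called with 0 false calls in both comparisons simulated, DR and double mutant against AL in translated mRNA. Only this size of change was used, and the recovery of rows near the 2-fold threshold was not tested. All simulated rows had the same set spread and started from their mean over all 24 libraries. Members with very low AL values were therefore not represented. Names, types and overlaps came from the Ensembl annotation of WBcel235, which matched 44933 rows, and no coordinates are given because the builds differ. Replicate numbers were not used to pair libraries. In none of the 15 pairs of groups did all same-numbered libraries correlate above 0.1 (range -0.274 to 0.280). Total and translated mRNA came from the same lysates, so that pairing is not excluded, and the main fit and the ratios leave it out. No libraries agreed within sampling noise. The p-values rest on the spread within groups, pooled for each gene over all 6 groups and both mRNA pools. limma also draws this spread toward a trend over all rows. The 4 libraries of a group are described as biological replicates.

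Genes given in detail are the 10 members with the largest smaller difference in total mRNA, the 5 most different either way between double mutant and DR among called members, the 4 least changed in each translated comparison, the 5 most abundant under DR, those at the thresholds, and up to 3 per list with at least 2 members. Others are given in brief. The members, lists and roles were chosen with earlier results of these data known. The choice of members, their calls and the changes of single members were recomputed with other filters, pseudocounts and scalings, on recovered reads with edgeR (version 4.0.16) and DESeq2 (version 1.42.0), in fits of the 2 groups alone, with a replicate block and without each library in turn. Promoters and other sequences were not analysed here.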

Additional observations from a re-analysis of the deposited data

Results flagged for a closer look

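In 258 groups of 4 values, 1 for each member and group, 15 had a library far from the other 3, where chance alone gives 12.9. Of these libraries, 4 were replicate 1 of translated mRNA in the double mutant: *ftn-1* at 183 CPM, *ilys-3* at 19.01 CPM, *scl-2* at 113 CPM and *fipr-2* at 16.3 CPM, each above the others. High values also stood in *lipl-1* at 62.1 CPM (translated DR replicate 2), *col-139* at 20.7 CPM (total DR replicate 1) and *C08F11.13* at 14.3 CPM (total AL replicate 3). Low values in AL total mRNA were *clec-5* at 2.75 CPM and *pph-7* at 11.6 CPM in replicate 2 and *txt-17* at 23.7 CPM in replicate 3. Low values in AL translated mRNA were *acs-2* at 12.7 CPM in replicate 4, *F31D4.8* at 4.15 CPM in replicate 1 and *unc-49* at 4.44 CPM in replicate 2. The other low values were *T26H5.10* at 6.21 CPM in total DR replicate 3 and *T07D3.4* at 16.6 CPM in total mutant replicate 3. The calls of these genes changed without the library concerned only for *F31D4.8* in the mutant, as given above.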

How the results depend on the processing

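The number of members depends on the minimum and the scaling. It was 43, and 130 with no minimum, 19 where AL total and AL translated means both had to reach 8 CPM, and 66 with plain CPM. Under the other alternatives it was 35 to 61, and 39 to 45 without 1 library. With the AL minimum, 16 of the 19 rose under DR and 14 in the double mutant in translated mRNA, and between double mutant and DR 6 were lower and 0 higher, 6 in all. Of the 43 under the other alternatives, 37 to 40 rose under DR and 35 to 40 in the mutant, and without 1 library 35 to 38 and 34 to 37, where 40 to 43 of the members passed the minimum. For the mutant against DR, plain CPM gave 6 higher and 7 lower, and median-ratio scaling and DESeq2 gave 2 higher each. Without 1 library 11 to 13 were called, 0 to 2 higher and 11 lower. Plain CPM moved the median of all rows in this comparison by more than the other scalings, from -0.01 to 0.40. The cause was not tested.

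A replicate block left 43 members, 38 and 37 rises and 1 higher and 11 lower member in the mutant against DR. The main fit treated same-numbered libraries as unpaired, and in at most 3 of 4 cases did a library correlate best with its own number. Of 1218 values of single members under alternatives other than leaving out a library, 1201 kept their call, 6 lost it and 11 gained it. Of 2314 values without 1 library, 2309 kept it, 4 lost it and 1 gained it, and 0 changed direction in either set. Against DR under plain CPM, *F31D4.8* (-0.73), *flp-15* (-0.71), *ftn-1* (-0.94) and *myo-3* (-0.91) were no longer called in the mutant. In the mutant against AL, *F31D4.8* (0.89 to 0.998) and *flp-15* (0.96 to 0.98) lost their call with a pseudocount of 1 and without 1 library, plain CPM and DESeq2 added *ZK930.2* (1.02 to 1.16) and *pcp-1* (1.01 to 1.201), and plain CPM *C46H11.2* (1.09). Under DR, median-ratio scaling and DESeq2 added *ZK930.2* (1.03 to 1.07) and, with edgeR, a pseudocount of 0.1 and the fit without DR translated replicate 4, *unc-49* (1.004 to 1.09). Reads limit the lowest values, since AL members had down to 9 reads a library in total and 6 in translated mRNA.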
